A study of Mus musculus with 6 samples.

Results

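The sulfotransferase (Sult) and UDP-glucuronosyltransferase (Ugt) genes were compared between normal liver and liver tumor of male C3H mice. Members were all probes, control spots left out, whose gene name in the array design, or current symbol of the probe's accession, begins with Sult and a digit or with Ugt1, Ugt2 or Ugt3 and a letter. The rule took 45 of 55681 probes, which stood for 34 of 34741 named genes and transcripts: 27 probes of 20 Sult genes and 18 probes of 14 Ugt genes. The study hybridized total RNA from 3 normal livers and 3 macroscopic liver tumors carrying Ha-ras mutation to one-color mouse arrays, 1 array per sample. All 6 samples came from untreated male C3H/HeN mice of 74 to 75 weeks, F2 offspring of purchased pregnant F0 females, on a standard diet and tap water in the control group of a larger project. The tumors had arisen spontaneously, only tumors with the Ha-ras mutation were hybridized, and a tumor sample holds every cell type of the dissected piece. The labels do not say which mouse gave which sample, so a p-value measures only the spread between these samples.

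Sulfotransferases move a sulfonate group from the donor PAPS to hydroxyl or amine groups of hormones, bile acids, neurotransmitters and drugs, and they work in the cytosol. UDP-glucuronosyltransferases sit in the membrane of the endoplasmic reticulum and attach a sugar, usually glucuronic acid from UDP-glucuronate, to bilirubin, steroids, bile acids and drugs. Both reactions make their substrates more soluble in water so that bile or urine can carry them away, and the hepatocyte is a main site of both.

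Expression values are the processed signal of a probe over the 75th percentile of its array, so a value of 1 lies at that percentile. Values of different probes are not on a common scale, and each gene was compared between samples on the same probe. The marker sums below add different probes, so they follow mainly the brightest of them. A probe was tested if every array of the normal livers, or every array of the tumors, had it well above background, and a gene was called if its adjusted p in limma was under 0.05, with log2 fold changes given as tumor minus normal. Between arrays of the same tissue the correlation of log2 values was 0.989 to 0.992 for normal livers and 0.980 to 0.990 for tumors, and it was 0.914 to 0.950 between tissues. The normal livers lay on 1 slide with a median local background of 42 to 45 and the tumors on another with 22 to 23, so that the slide cannot be told apart from the tissue. Over all tested genes, 13.1% were called higher and 21.0% lower in the tumors, to be set beside the marker counts that follow. Hepatocyte markers summed to 8630 to 9582 in the normal livers and 8744 to 9261 in the tumors, with 1 of 8 higher (Apoa1, log2 fold change 0.90) and 1 lower (Tat, -1.43). Of 6 macrophage markers 4 fell, and their sum went from 72.7 to 116 in the normal livers to 36.9 to 58.3 in the tumors. Stellate cell and fibroblast markers summed to 6.30 to 10.2 and 10.5 to 15.6, with 1 of 6 higher and 2 lower, and endothelial markers to 53.1 to 65.0 and 46.9 to 49.9, with 1 of 5 lower. No tested marker of cholangiocytes (3 of 5 tested, sums 1.94 to 2.32 and 1.55 to 1.91), lymphocytes (2 of 5, 6.53 to 8.27 and 6.63 to 8.51) or neutrophils (3 of 4, 4.82 to 7.28 and 5.18 to 17.4) was called, and the remaining neutrophil marker, Mpo, was well above background on no array. The part of these shifts in the results below was not tested, and in such bulk samples fewer cells of a type and less RNA per cell cannot be told apart.

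Several members are near copies of each other, and the probes show how far the array could separate them. The stretches below are 30 bases of the 60-base probes named Sult2a1, Sult2a2 and Sult2a4, aligned over 53 bases, and capitals mark the bases that differ among the 3 probes.
Sult2a1 probe: ttgttGtGtatcttgaatacctAGatGtgg
Sult2a2 probe: ttgttCtAtatcttgaatacctGAatAtgg
Sult2a4 probe: ttgttCtGtatcttgaatacctAGatGtgg
The Sult2a2 and Sult2a1 probes matched at 54 of 59 aligned bases, and the Sult2a4 and Sult2a1 probes at 51 of 54. A signal on 1 of them may therefore hold RNA of its relatives. The Sult2a4 probe was well above background on none of the 6 arrays.

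A pair of overlapping Sult2a6 probes differed by the capital letters in the next stretches, and matched at 40 of 42 aligned bases.
Sult2a6 probe A: taaggaagatcAgAttactaatggcttgaa
Sult2a6 probe B: taaggaagatcGgGttactaatggcttgaa
The probes of Ugt2b5 and Ugt2b37 differed more, at 9 of 55 aligned bases, and capitals again mark the differences.
Ugt2b37 probe: AatttatgaGccaccttctaaacactGATT
Ugt2b5 probe: TatttatgaAccaccttctaaacactTGAC
The values of such genes are given by the name of the probe and are uncertain as to the single gene.

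After the filter 12 of 20 Sult genes and 13 of 14 Ugt genes could be tested. Of the 13 Ugt genes, 11 fell in the tumors, 9 of them by 2-fold or more, and none rose; over all 18567 tested genes, 21.0% fell, 6.84% by 2-fold or more. The tested Ugt genes all had log2 fold changes below 0, from -3.61 to -0.65, with a median of -1.42, against a median of -0.13 over all tested genes. The Sult genes went both ways. Of the 12, 5 fell and 4 rose, each by 2-fold or more, and 3 were not called; over all tested genes 13.1% rose, 7.80% by 2-fold or more. Their fitted log2 fold changes ran from -5.73 to 7.26 with a median of -0.92. Setting Sult2a6, the highest of them and dim in all normal livers, to its bound could not move that median. Without the filter on dim probes, which let in the dimmer Sult genes, the median was -0.39. A member that passed the filter through 1 tissue alone was favored to be higher there. Sult2a2, Sult2a6 and Sult2b1, which rose, passed through the tumors alone. Sult2a7, Sult5a1 and Ugt1a10, which fell, passed through the normal livers alone, as did Sult1e1 and Ugt2a1, which were not called. These counts describe the tested genes only.

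**Figure D1:**
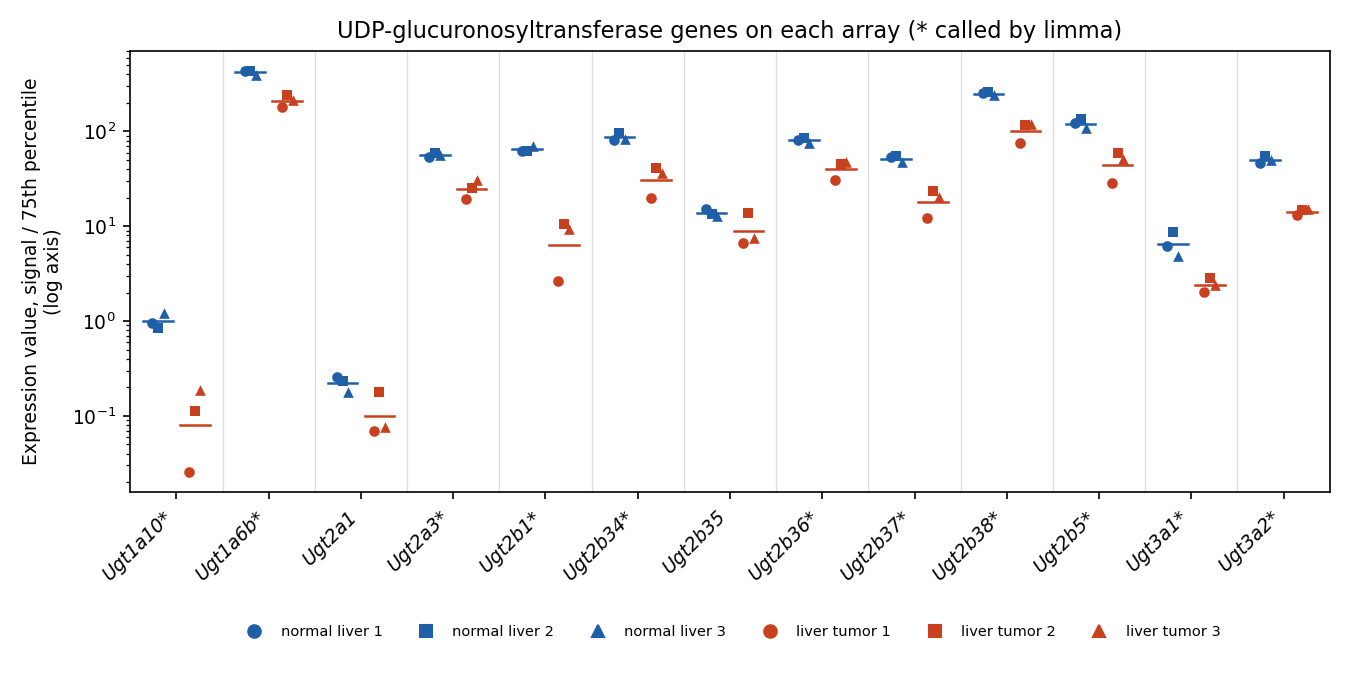
Expression values (signal over the 75th percentile of the array, log axis) of the 13 tested Ugt genes on each of the 6 arrays, with 1 symbol per replicate number, blue for normal liver and orange for tumor, and a line at the geometric mean of each group (n = 3). Each called gene, marked *, has all 3 tumors below all 3 normal livers, and liver tumor 1 is the lowest sample for each of the 13 genes. Calling a gene favors such separation, and neither trait was counted over all tested genes.

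The Ugt2b enzymes, which conjugate steroids, bile acids and many drugs, made up most of the tested Ugt genes. Ugt2b1 had the largest fall among them, with values of 62.3, 61.5 and 70.3 in the normal livers and 2.63, 10.6 and 9.46 in the tumors. All tumors lay far below the normal livers, and liver tumor 1 lay below the other tumors. The fall was 10.1-fold (log2 fold change -3.33 ± 0.51, standard error, n = 3 per group, adjusted p = 0.00532), and -2.69 without liver tumor 1 (adjusted p = 3.4e-04). Ugt2b38 had values of 253, 260 and 241 in the normal livers and 75.8, 117 and 120 in the tumors. The tumors ranked below every normal liver, at a log2 fold change of -1.30 ± 0.19 (adjusted p = 0.00492). Ugt2b5 had 122, 136 and 108 in the normal livers and 28.7, 59.4 and 50.8 in the tumors (-1.46 ± 0.28, adjusted p = 0.0103). Its near copy Ugt2b37 showed the same separation, with 53.2, 55.0 and 47.4 against 12.2, 23.8 and 20.3 (-1.52 ± 0.25, adjusted p = 0.00673).

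Ugt2b34 fell as well, from 81.1, 96.4 and 83.4 in the normal livers to 20.1, 41.1 and 36.4 in the tumors (-1.48 ± 0.27, adjusted p = 0.00943). Ugt2b36 fell by less than 2-fold (-0.997 ± 0.19, adjusted p = 0.0101), and when spike-in controls set the scale it was no longer called (-0.79, adjusted p = 0.0545). Ugt2b35 was the only tested Ugt2b gene that was not called. Its values were 15.2, 13.4 and 13.0 in the normal livers and 6.73, 13.7 and 7.47 in the tumors, so that liver tumor 2 lay within the normal range. Its log2 fold change was -0.65 ± 0.27 (adjusted p = 0.114) and -0.86 ± 0.28 on the second probe (adjusted p = 0.0576); without liver tumor 2 it was -0.96 (adjusted p = 0.011).

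Among the Ugt2a genes, Ugt2a3, whose human counterpart conjugates bile acids, fell from 54.0, 59.8 and 56.7 to 19.3, 25.1 and 31.1. The groups were apart (-1.20 ± 0.19, adjusted p = 0.0054). Ugt2a1, best known from the olfactory lining, was weak, with 0.260, 0.233 and 0.178 in the normal livers and 0.0691, 0.180 and 0.0771 in the tumors, of which only liver tumor 2 was well above background. Its log2 fold change of -1.16 ± 0.38 was not called (adjusted p = 0.0561), except under normexp background correction (-0.46, adjusted p = 0.034) and without liver tumor 2 (-1.60, adjusted p = 0.00718).

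The Ugt3a enzymes differ from the rest of the family in the sugar they use, N-acetylglucosamine for Ugt3a1 and glucose or xylose for Ugt3a2. Ugt3a2 had values of 46.2, 55.4 and 50.1 in the normal livers and 13.0, 14.7 and 15.1 in the tumors. The tumors were close together, and the fall of 3.54-fold had the smallest standard error of the tested Ugt genes (-1.82 ± 0.12, adjusted p = 3.2e-04). A second Ugt3a2 probe gave -1.84 ± 0.12. Ugt3a1 had 6.24, 8.78 and 4.89 in the normal livers and 2.03, 2.86 and 2.42 in the tumors (-1.42 ± 0.24, adjusted p = 0.00725), and an unpaired test on linear expression values did not call it (adjusted p = 0.0759). The statistics section of the study's methods names a paired test, which called 0 genes here after adjustment, and 5769 of all tested genes at an unadjusted p under 0.05.

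The Ugt1a enzymes, which include the one that conjugates bilirubin, arise from 1 locus where separate first exons are joined to a shared 3′ end. The annotation lists 9 Ugt1a genes, all ending at 1 of 2 positions, 88218998 or 88220002 of chromosome 1 (GRCm38.p6). The probes named Ugt1a6b lie 111244 bases apart on the array design's own coordinates, and the annotated gene spans 115742 bases. Which of these probes lies nearer the shared 3′ end, which all Ugt1a transcripts may reach, is not resolved here. The value counted for Ugt1a6b may therefore hold RNA of other Ugt1a genes. The probe that stood for the gene had 434, 437 and 396 in the normal livers and 181, 241 and 216 in the tumors (-0.998 ± 0.14, adjusted p = 0.00384). The second probe had 6.62, 7.97 and 5.88 against 0.766, 3.01 and 2.37 (-1.94 ± 0.50, adjusted p = 0.027). Without liver tumor 1 the second probe was -1.34 and the first -0.89. Both probes separated the groups, and the difference between their changes was not tested.

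Ugt1a10 fell from 0.950, 0.844 and 1.22 in the normal livers to 0.0254, 0.111 and 0.188 in the tumors. Only 1 of 3 tumors was well above background, so the log2 fold change of -3.61 ± 0.69 (adjusted p = 0.0106) depends on how dim spots are handled. It was -2.78 without liver tumor 1, -4.22 without liver tumor 3 and -1.56 under normexp background correction, and it was called each time. A second Ugt1a10 probe was well above background on no array. Ugt1a6a, with 0.178, 0.296 and 0.271 against 0.130, 0.0853 and 0.0655, was the 1 Ugt gene that was not tested. It was well above background in 2 normal livers and no tumor, which bounds the difference at 2.26-fold or more. Such a bound sets the mean of the brighter group against, for each array of the dim group, the higher of the probe's own signal and the lowest signal that was well above background. It holds for the processed signal and not for other background corrections, and an adjusted p beside it is that of the fitted change.

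**Figure D2:**
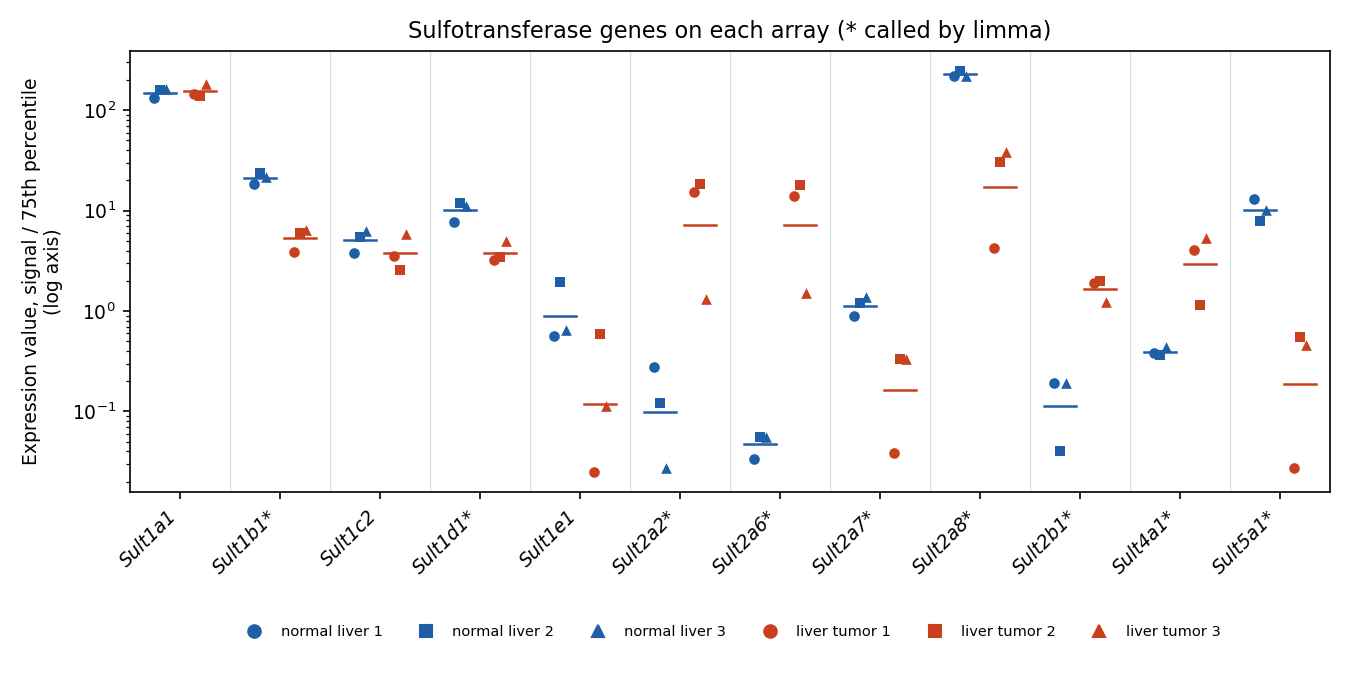
Expression values (signal over the 75th percentile of the array, log axis) of the 12 tested Sult genes on each of the 6 arrays, with symbols, colors and lines as for the Ugt genes. Sult2a8 and Sult5a1 drop while Sult2a2 and Sult2a6 rise, with liver tumor 3 well below the other tumors for the latter, and Sult1a1 overlaps between the groups.

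The Sult1 enzymes act mostly on phenols. Sult1a1, the main phenol sulfotransferase of liver, had values of 132, 157 and 163 in the normal livers and 146, 140 and 182 in the tumors. The groups overlapped, and both probes of the gene gave small log2 fold changes, 0.05 ± 0.15 (adjusted p = 0.832) and 0.07 ± 0.14 (adjusted p = 0.744). Sult1b1, which conjugates thyroid hormones, fell 3.98-fold, from 18.3, 23.8 and 21.5 to 3.89, 5.94 and 6.42 (-1.99 ± 0.22, adjusted p = 0.00179). Sult1d1, which acts on catecholamines such as dopamine, had 7.76, 12.03 and 11.1 in the normal livers and 3.23, 3.44 and 4.95 in the tumors. Its probes gave -1.41 ± 0.23 (adjusted p = 0.00663) and -1.60 ± 0.28 (adjusted p = 0.0084). Both genes had every tumor below every normal liver.

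Sult1e1, the estrogen sulfotransferase, varied widely within both groups, with 0.562, 1.96 and 0.648 in the normal livers and 0.0248, 0.584 and 0.113 in the tumors. Liver tumor 1 was not well above background and liver tumor 2 lay within the normal range. The log2 fold change of -2.92 ± 1.13 was not called (adjusted p = 0.0912). It was called with normexp (-1.27, adjusted p = 0.049), spike-in scaling (-2.71, adjusted p = 0.0348), the replicate block (-2.92, adjusted p = 0.025) and without liver tumor 2 (-4.07, adjusted p = 0.022). Sult1c2 overlapped between the groups, with 3.77, 5.41 and 6.34 against 3.57, 2.59 and 5.87 (-0.42 ± 0.33, adjusted p = 0.374).

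The Sult2a enzymes sulfonate hydroxysteroids and bile acids, and in mouse liver most are known to be more abundant in females than in males. Sult2a8 had values of 219, 247 and 220 in the normal livers and 4.27, 30.3 and 38.4 in the tumors. All tumors lay well below the normal livers. The fall was 13.4-fold (-3.74 ± 0.79, adjusted p = 0.0148), and -2.74 without liver tumor 1 (adjusted p = 4.8e-04). Sult2a7 had 0.885, 1.196 and 1.37 in the normal livers and 0.0385, 0.335 and 0.333 in the tumors, of which liver tumor 1 was not well above background. Its log2 fold change of -2.80 ± 0.83 passed narrowly (adjusted p = 0.0431), and was -1.76 without liver tumor 1 (adjusted p = 0.0035) and -1.34 with normexp (adjusted p = 0.00159). The call was lost without any 1 of the normal livers (adjusted p = 0.0864 to 0.111), with quantile normalization (0.0537), with the percentile taken over probes well above background (0.0546) and without the filter on dim probes (0.108).

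Other Sult2a genes moved the opposite way. Sult2a6 probe B was well above background in no normal liver and had values of 14.0, 17.9 and 1.52 in the tumors. On the processed signal the rise was at least 64.0-fold. The fitted log2 fold change of 7.26 (adjusted p = 0.00283 in limma) is set against dim spots. The probe passed the filter through the tumors alone. With normexp background correction the log2 fold change was 4.22, below the bound, so the size depends on how dim spots are handled. Probe A, whose sequence overlaps that of probe B, was again not well above background in the normal livers and had 4.31, 5.17 and 0.422 in the tumors, at least 18.6-fold higher (adjusted p = 0.00473). One more Sult2a6 probe was well above background on no array. Sult2a2 had 0.278, 0.122 and 0.0276 in the normal livers, of which only 1 was well above background, and 15.4, 18.4 and 1.32 in the tumors (6.20 ± 1.23, adjusted p = 0.0119). The tumors were all above the normal livers for these probes, with liver tumor 3 about an order of magnitude below the other tumors.

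Because of that tumor, the fitted values shifted when it was left out, to 8.39 for Sult2a6 (adjusted p = 2.4e-04) and 7.42 for Sult2a2 (adjusted p = 0.00622). They fell to 6.61 and 5.52 without liver tumor 2, and Sult2a2 was 6.95 without normal liver 1 and 5.29 without normal liver 3, all called. With normexp they were 4.22 and 3.97, also called, while the unpaired test called neither (adjusted p = 0.18 and 0.187). Sult2a1, whose probe resembles that of Sult2a2, was not tested. It was well above background in no normal liver and had 1.04, 1.19 and 0.0770 in the tumors, of which the first 2 were above background, so that the bound was a difference of at least 4.02-fold. Sult2a3 had 0.0637, 0.0510 and 0.0780 in the normal livers, all dim, and 0.275, 0.231 and 0.0555 in the tumors, the first 2 above background. Its groups overlapped, with liver tumor 3 below 2 of the normal livers, and the bound was at least 1.34-fold.

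A pair of Sult genes outside the Sult2a group also rose. Sult2b1, which sulfonates cholesterol and pregnenolone and is best known from skin, had 0.192, 0.0405 and 0.192 in the normal livers, 2 of them well above background, and 1.90, 2.001 and 1.22 in the tumors. All tumors were above all normal livers (3.87 ± 0.62, adjusted p = 0.00594). The log2 fold change was 3.12 without normal liver 2 and 1.84 with normexp, and it was called both times. Sult4a1, a brain enzyme without a well established substrate, had 0.385, 0.363 and 0.434 in the normal livers and 4.06, 1.14 and 5.30 in the tumors, with liver tumor 2 the lowest (2.89 ± 0.55, adjusted p = 0.0101). It was 3.56 without liver tumor 2 and 2.05 with normexp, and the unpaired test did not call it (adjusted p = 0.147). The other Sult4a1 probes were not well above background in the normal livers but were in liver tumors 1 and 3, with bounds of at least 1.45-fold and 1.16-fold. On the probe with the bound of 1.16-fold the groups overlapped, with liver tumor 2 (0.0250) below every normal liver (0.0306 to 0.0364).

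Sult5a1 had the largest fall of the tested Sult genes, from 13.1, 7.82 and 10.04 in the normal livers to 0.0271, 0.550 and 0.459 in the tumors. Liver tumor 1 was not well above background and the other tumors were more than an order of magnitude below the normal livers. The log2 fold change was -5.73 ± 1.12 (adjusted p = 0.0112). It was -4.33 without liver tumor 1 (adjusted p = 4.5e-04), -6.50 without liver tumor 2, -6.37 without liver tumor 3 and -3.80 with normexp, and it was called in each. The log2 ratio of mean values was -4.90, which the unpaired test called (adjusted p = 0.0282) and the paired form did not (adjusted p = 0.139). A second Sult5a1 probe was well above background on no array. Of the 20 Sult genes 8 were not tested: besides Sult2a1 and Sult2a3, these were Sult1c1, Sult2a4, Sult3a1, Sult3a2, Sult6b1 and Sult6b2, all of them too dim on each array.

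For most tested members the tumors differed among themselves more than the normal livers did. Neither the ratios nor the orders below were taken over all tested genes, so they cannot be called particular to the members. Over all tested probes the correlation was 0.980 to 0.990 between tumors and 0.989 to 0.992 between normal livers. Ratios of genes with a tumor not well above background, such as Sult1e1, Sult2a7, Sult5a1 and Ugt1a10, depend on dim spots. The highest tumor value over the lowest was wider than the same ratio among normal livers for 10 of 12 Sult genes, with a median of 6.67 against 1.61, and for 11 of 13 Ugt genes, with a median of 1.96 against 1.17. Liver tumor 1 was the lowest tumor for all 5 Sult genes that fell and for all 11 Ugt genes that fell. Of the 4 Sult genes that rose, liver tumor 3 was the lowest tumor for 3 and liver tumor 2 for Sult4a1. These genes share the arrays and the scaling of each array, and the orders are given as a description of these 3 tumors.

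Many members lie side by side in the genome (GRCm38.p6). All 9 Ugt2 genes on the array and the neighboring Sult1b1, Sult1d1 and Sult1e1 occupy 702 kb at chr5:86889770-87591611. Of these 12 genes 9 fell and none rose, beside 21.0% and 13.1% of all tested genes, and Sult1e1, Ugt2a1 and Ugt2b35 were not called. These genes are already in the family counts above, so the cluster count is not a separate result. The 7 Sult2a genes on the array occupy 760 kb at chr7:13733506-14493023. There, 4 were tested, of which Sult2a2 and Sult2a6 rose while Sult2a8 and Sult2a7, the last of them in annotated order, fell. The tested Sult2a genes thus went both ways within 1 stretch, unlike those of the chromosome 5 cluster. However, Sult2a2 and Sult2a6 passed the filter through the tumors alone and Sult2a7 through the normal livers alone, which favored their directions. Of the 4, only Sult2a8 was well above background on all 6 arrays, and the contrast between the clusters was not tested. Elsewhere, Sult2b1 and Sult1a1 are on the same chromosome 7, Sult5a1 is at chr8:123142843-123158914, Sult4a1 at chr15:84076097-84105754, and Ugt3a1 and Ugt3a2 are neighbors at chr15:9279822-9315038 and chr15:9335551-9370955.

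**Figure D3:**
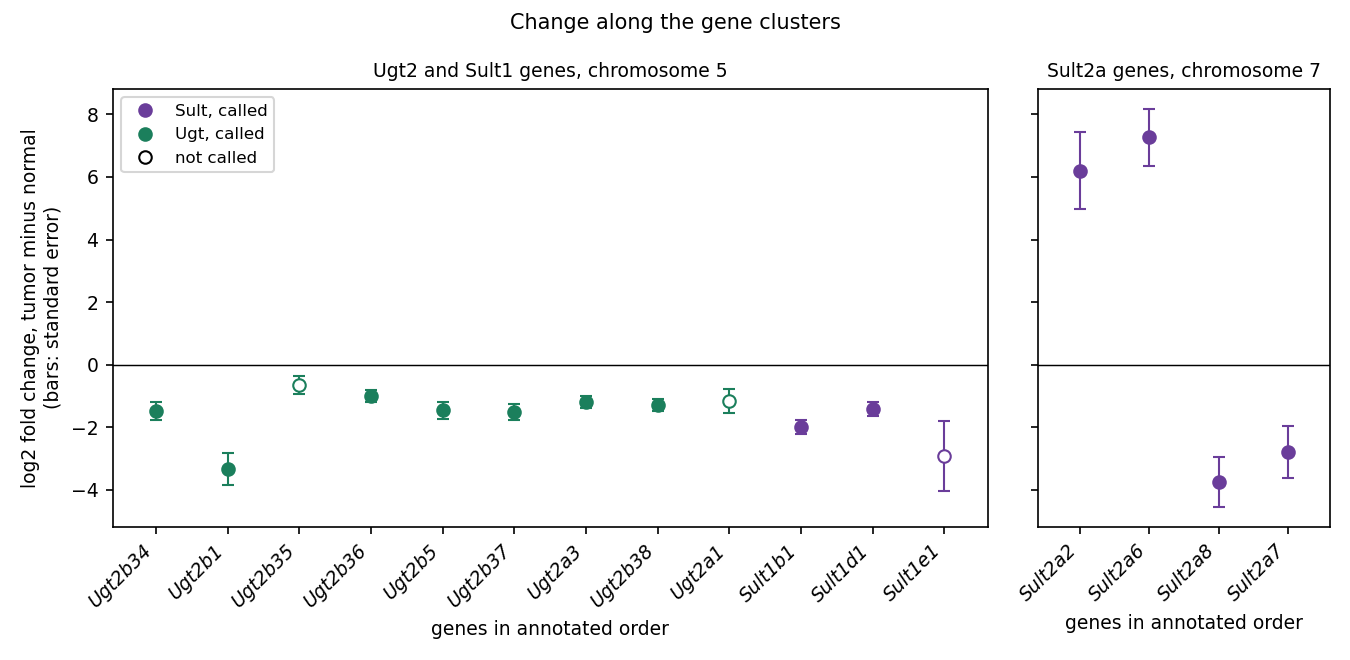
Log2 fold change (tumor minus normal, bars for the standard error, n = 3 per group) of the tested genes of the chromosome 5 and chromosome 7 clusters in annotated order, with filled points for called genes and open points for others. The 12 genes of the chromosome 5 cluster are all below 0, while the chromosome 7 cluster has 2 genes above 6 and 2 below -2.

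Promoter sequences of 28 member genes were available from RefSeq (GRCm38.p6), as 250 bases before and 50 after a start. Ugt2b5 and Ugt2b37, the near copies described above, also share sequence before their starts, and capitals mark the longest run common to the 120 bases shown.
Ugt2b5, minus strand of chr5:87140341-87140460: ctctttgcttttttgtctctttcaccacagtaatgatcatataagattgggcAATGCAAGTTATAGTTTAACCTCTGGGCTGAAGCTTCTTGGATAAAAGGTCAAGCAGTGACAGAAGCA
Ugt2b37, minus strand of chr5:87254789-87254908: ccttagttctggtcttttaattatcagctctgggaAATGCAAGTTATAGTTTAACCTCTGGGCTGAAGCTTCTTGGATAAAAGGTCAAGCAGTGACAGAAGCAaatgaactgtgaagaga
The run was 68 bases long and was found in 2 of all 32851 promoters, those of these genes. Among the letters searched on both strands of all promoters, not all of which are reported here, were TTCNNNGAA (STAT), in 2 member genes and 8.30% of all promoters, TNGCGTG (aryl hydrocarbon receptor), in 1 and 5.07%, CAAAGTCCA (hepatocyte nuclear factor 4), in 1 and 0.475%, and TGANNNNGC (the antioxidant response element), in 9 and 41.3%. No Ugt2b promoter held any of these. None of these motifs contains another. A match is a description of the letters in this window and not a site.

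The genes that supply these enzymes, move their products or regulate them were followed in 6 lists. Of 45 such genes tested, 4 rose and 22 fell, or 13 without normal liver 2, beside 13.1% and 21.0% of all tested genes. The same shares stand beside the counts of each list below, and the lists are short. Of the 26 calls, 16 to 23 were kept when 1 sample was left out, and Papss2, Ugdh, Slc35d1, Abhd10, Abcg2, Slco1b2, Slco2b1, Ahr, Stat5b and Glyat were among those that lost theirs in at least 1 of these fits. Supply of PAPS was mixed, with 1 of 7 tested genes higher, 3 lower and a median log2 fold change of -0.03. Papss2, which makes PAPS, fell from 45.6, 67.5 and 55.7 to 34.97, 33.3 and 39.6 (-0.63 ± 0.17, adjusted p = 0.0313). The sulfate transporter Slc26a1 fell further (-1.21 ± 0.21, adjusted p = 0.00748), as did Bpnt1 (-1.04 ± 0.19, adjusted p = 0.00867), which breaks down the spent donor. A second sulfate transporter, Slc26a2, was not well above background in the normal livers and at least 1.43-fold higher in the tumors (adjusted p = 0.0100), and it was not called with normexp (0.11, adjusted p = 0.471).

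Supply of UDP-glucuronate had 2 of 4 genes lower and none higher (median -0.43). Ugdh, the dehydrogenase that makes UDP-glucuronate, had 55.5, 67.6 and 45.1 in the normal livers and 12.9, 32.6 and 25.0 in the tumors, with the groups apart (-1.33 ± 0.35, adjusted p = 0.0297). Slc35d1, which carries it into the endoplasmic reticulum, fell by 0.60 on the log2 scale (adjusted p = 0.0432). Enzymes that hydrolyze conjugates went the opposite way, with 2 of 3 higher and none lower: Gusb, the lysosomal beta-glucuronidase, rose from 5.88, 5.78 and 5.27 to 8.51, 8.53 and 10.1 (0.68 ± 0.12, adjusted p = 0.00829), and Abhd10 rose by less (0.42, adjusted p = 0.0272).

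**Figure D4:**
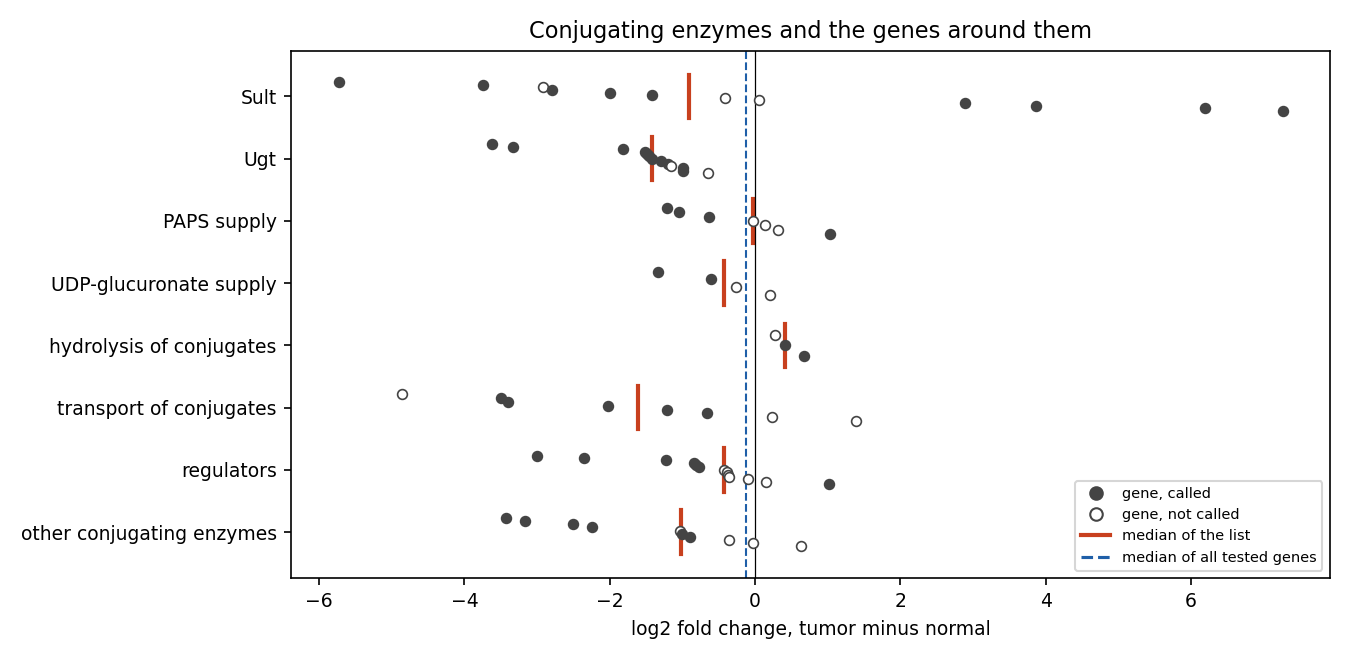
Log2 fold change (tumor minus normal) of each tested Sult and Ugt gene and of the tested genes of the 6 surrounding lists, filled where limma called the gene, with an orange line at the median of each group and a dashed line at the median of all tested genes (-0.13). The Ugt points all lie below 0 with a median of -1.42, the Sult points spread from -5.73 to 7.26, and the 3 genes for hydrolysis of conjugates lie above 0.

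Transporters of conjugates had 5 of 8 tested genes lower and none higher (median -1.62). The uptake transporter Slco1b2 had 268, 360 and 334 in the normal livers and 6.60, 53.3 and 77.6 in the tumors. As for many Ugt genes, liver tumor 1 was the lowest (-3.40 ± 0.88, adjusted p = 0.0277), and the value was -2.31 without it and -4.08 without liver tumor 3. Slco2b1 was -3.50 ± 0.88 (adjusted p = 0.0257), -2.39 without liver tumor 1 and -4.15 without liver tumor 3. Without the filter on dim probes, or without any 1 of the normal livers, neither was called. Slco1a4 fell too (-2.03 ± 0.36, adjusted p = 0.00799; -1.39 with normexp). Slco1a1 had 17.2, 17.1 and 19.2 against 0.0338, 2.41 and 2.81 and was not called (-4.86 ± 1.64, adjusted p = 0.0626). Liver tumor 1 was not well above background for it, and without that tumor it was called (-2.77, adjusted p = 3.4e-04). The export pumps Abcc3 and Abcg2 fell by 1.21 and 0.66 on the log2 scale.

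Among regulators 6 of 13 tested genes fell and 1 rose (median -0.43). Nr1i3, the constitutive androstane receptor that induces many of these enzymes, had 26.5, 27.2 and 26.2 in the normal livers and 3.65, 6.94 and 5.66 in the tumors (-2.35 ± 0.23, adjusted p = 0.00131). Bcl6, a repressor more abundant in male than in female liver, had 9.50, 25.6 and 25.1 against 1.45, 1.64 and 5.08 (-2.99 ± 0.59, adjusted p = 0.0116). The bile acid receptor Nr1h4 fell by 1.22 on the log2 scale (adjusted p = 0.0101). Nfe2l2, which drives genes with an antioxidant response element, was the 1 that rose, from 9.17, 11.6 and 13.5 to 26.04, 22.8 and 20.03 (1.02 ± 0.18, adjusted p = 0.0082). Hnf4a overlapped between the groups (0.16 ± 0.14, adjusted p = 0.436).

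Enzymes of other conjugation reactions had 6 of 10 genes lower and none higher (median -1.02). The arylamine acetyltransferase Nat1 had 0.323, 0.449 and 0.298 in the normal livers and was well above background in no tumor, at least 3.42-fold lower (adjusted p = 7.6e-04), though with normexp it fell by only 0.90 on the log2 scale. Nicotinamide methyltransferase Nnmt fell from 1.59, 2.40 and 1.42 to 0.136, 0.228 and 0.239 (-3.17 ± 0.29, adjusted p = 9.0e-04), and by 1.92 on the log2 scale with normexp. Inmt, an indolamine methyltransferase, fell from 131, 182 and 224 to 13.8, 41.2 and 51.1 (-2.51 ± 0.50, adjusted p = 0.012).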

How the data were processed

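Total RNA of 3 normal livers and 3 liver tumors was labeled with Cy3 and hybridized to SurePrint G3 Mouse GE arrays. The authors deposited Feature Extraction output, version 10.7.3.1 in the file headers and 12.0.3.1 per the labels, whose processed intensity is background subtracted and holds a surrogate value for spots not above background. They also deposited a table holding this signal as a ratio, and 99.87% of its values equalled the signal over the array's 75th percentile within rounding.

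Here the processed intensity was divided by the 75th percentile of all 62976 spots of its array and taken to log2. Control and outlier spots were left out, spots of a probe were averaged, and the 24901 of 55681 probes that every array of either group had well above background entered limma 3.58.1 in R 4.3.3 (lmFit and eBayes, two-sided, Benjamini-Hochberg over all tested probes). The probe with the highest mean stood for its gene. An exact permutation test of 3 against 3 samples cannot go below 0.1. No spot was saturated, and precision is limited by how few arrays there are. On simulated data over 24889 probes, 154 of 200 changed probes were called, 56.7% at 2-fold, with 5 false calls. In the data themselves 8239 probes were called, far more than were changed there. The adjustment depends on that share, so these rates do not carry over to this comparison.

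Every member is accounted for. Values on each array are given for member genes called with 2-fold or more, those with the highest signals and those above background in 1 group alone, and up to 3 called genes with the largest change are named per list. Papss2, Abcc3, Abcg2, Nfe2l2, Slco1a1 and Hnf4a, the genes named for lost calls, Apoa1, Tat and Mpo were chosen after their values were seen. A few planned results are not reported here. The members and lists were chosen with earlier results of these data known. Probes were named through RefSeq (GRCm38.p6) by accession (27235), symbol (3581) or synonym (565), otherwise by the design (24300). Tables and plots were made in Python 3.11.15 (scipy 1.17.1, pandas 2.3.3, matplotlib 3.10.9, numpy 2.4.6). Alternatives were normexp (offset 50), quantile, spike-in and other percentile scaling, no or a stricter filter, the deposited table, the replicate block, a gene as the mean over its probes, an eBayes trend, both forms of the methods' t-test and leaving out each sample.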

Additional observations from a re-analysis of the deposited data

How the results depend on the processing

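No Ugt gene was called higher under any alternative, and all calls of the 9 Sult and 11 Ugt genes kept their direction. Apart from single samples left out, 4 Sult genes were called higher except with the stricter filter (1), the unpaired t-test of the methods (1) and its paired form (0), and 4 to 6 lower except with the stricter filter (3) and the paired form (0), where the stricter filter left fewer genes to test. The paired form called 0 Ugt genes and 0 of the surrounding genes either way, and 0 of all probes, though 16 of the 20 called members and 7421 of all probes had an unadjusted p under 0.05 in it. The count of called probes, 8239, was 5097 with spike-in scaling, 4674 without the filter and 5262 with the unpaired t-test. Of the surrounding genes, 2 were called higher with normexp, and 12 were called lower without the filter and 14 with the unpaired t-test. Leaving out 1 sample gave 4954 to 7171 called probes, 4 Sult genes higher, 4 to 6 Sult genes lower, 0 Ugt genes higher, 11 to 13 Ugt genes lower, 3 to 4 surrounding genes higher and 13 to 21 lower. Sult1a1, not called, changed sign without normal liver 1 (-0.046) and without liver tumor 3 (-0.068). With the replicate block 7021 probes, 4 Sult genes higher, 6 lower and 11 Ugt genes lower were called. Deviations from the group means correlated at 0.07, 0.18 and 0.05 for samples with the same number and at -0.20 to 0.10 for the others. With 3 samples per group this cannot settle whether the numbers pair the samples. The labels give no pairing, and the main fit took the samples as unpaired. The median of all probes moved by 0.21 with spike-in scaling and 0.12 with the other percentile, against which the Ugt median was -1.21 and -1.30. Dim spots limit the log2 fold changes of Sult2a2, Sult2a6, Sult2a7, Sult2b1, Sult5a1 and Ugt1a10, and 8 Sult genes and 1 Ugt gene were too dim to test.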
